A study of Homo sapiens with 23 samples.

Results

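A set of genes of lipoprotein assembly, remodelling and uptake was followed through mRNA-seq of human Caco-2 and HepG2 cells kept in the iGLC platform, a chip in which gut and liver cells can be cultured alone or joined by perfusion. The genes were taken by symbol from every TPM table: MTTP and TM6SF2 for assembly, LIPC, LCAT, PLTP and ANGPTL8 for remodelling, and SCARB1, LRP1 and VLDLR for uptake, which makes 9 of the 60564 genes listed. There were 23 libraries, 11 of Caco-2, an intestinal line used as a model of enterocytes, and 12 of HepG2, a liver tumour line used as a model of hepatocytes. Each line was mono-cultured or co-cultured with the other line, and was given FFAs (palmitic acid and oleic acid at a molecular ratio of 1:2, 1 mM in total) or no FFAs (control) for 1 day. According to the labels, the medium held 0.5% FBS during this day, in controls and treated cells alike, whereas the study's methods describe a medium without serum but with BSA. There were 3 libraries per group, but 2 for control Caco-2 cells in co-culture, and the study's methods speak of independent experiments for the sequencing. The labels do not say which libraries came from which experiment or chip, so p-values measure only the spread between these libraries, part of which may be technical. Each organ was represented by 1 tumour-derived line, and in bulk RNA of such a culture a change in RNA per cell cannot be told apart from a change in the share of cells that carry it.

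Lipoproteins carry triglyceride and cholesterol between gut, liver and other tissues. Enterocytes and hepatocytes load lipid onto apolipoprotein B with microsomal triglyceride transfer protein (MTTP) and secrete the particles as chylomicrons or VLDL, with TM6SF2 taking part in their lipidation. In the circulation, hepatic lipase (LIPC) hydrolyses lipid of remnants and HDL, LCAT esterifies the cholesterol of HDL, PLTP moves phospholipid between particles, and ANGPTL8, a hepatic hormone that follows feeding, takes part in restraining lipoprotein lipase. SCARB1 takes cholesteryl ester from HDL, while LRP1 and VLDLR are endocytic receptors that take up whole particles.

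The promoters of MTTP and LIPC are shown first because they share a motif while the genes differ in their pattern between the lines, as described below. RefSeq sequences of the 250 bases before the start (GRCh38.p14) were at hand for 7 of the 9 genes, with 9 starts. The consensus of hepatocyte nuclear factor 1 (HNF1), a factor of liver and gut epithelium, was searched on both strands as the half-site TTAAT, any base and the half-site ATTAA, after the sequences had been read. It was found at 1 start of MTTP (chr4:99574574-99574823, plus strand) and at the start of LIPC (chr15:58431741-58431990, plus strand), in capitals here.
MTTP: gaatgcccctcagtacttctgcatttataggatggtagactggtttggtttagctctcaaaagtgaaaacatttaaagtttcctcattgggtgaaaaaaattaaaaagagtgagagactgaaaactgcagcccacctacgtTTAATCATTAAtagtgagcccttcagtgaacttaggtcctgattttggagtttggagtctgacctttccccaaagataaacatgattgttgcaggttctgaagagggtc
LIPC: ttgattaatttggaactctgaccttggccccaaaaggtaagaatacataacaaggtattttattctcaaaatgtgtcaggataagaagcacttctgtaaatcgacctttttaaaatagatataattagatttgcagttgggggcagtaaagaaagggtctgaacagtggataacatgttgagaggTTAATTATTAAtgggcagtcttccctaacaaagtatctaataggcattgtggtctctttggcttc
The match began 109 bases before the start in MTTP and 65 bases before it in LIPC, and 31 of 35116 promoters of the same length (0.0883%) held one. The exact letters TGACCTTTG, a part of the direct repeat bound by HNF4, were in none of the members' windows and in 119 of all promoters (0.339%). Near matches, such as tgacctttc in the MTTP window and tgaccttgg in the LIPC window, were not counted. A match of letters describes the window and says nothing of binding.

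The labelled lines were checked with 10 markers each. The summed HepG2 markers (ALB, TF, AMBP and 7 others) lay between 41139 and 64655 TPM in HepG2 libraries, and between 2171 and 4394 TPM in Caco-2 libraries, where every one of them was above 0. ALB made up much of this sum, and 9 of the 10 had a higher mean in HepG2, the exception being HPX (15.2 TPM in HepG2 and 19.9 TPM in Caco-2). The summed Caco-2 markers (CDX2, CDH17, VIL1 and 7 others) lay between 1408 and 1839 TPM in Caco-2 libraries and between 176 and 279 TPM in HepG2 libraries, and CDX1 was at or near 0 in all libraries. VIL1 made up much of the HepG2 sum, with a mean of 204 TPM there, while CDX2 (0.275 TPM) and CDH17 (0.684 TPM) were near 0. A pair of co-cultured Caco-2 libraries stood apart in TF and AMBP, secreted liver proteins and 2 markers picked from the 10 of HepG2. The source of this RNA was not tested. The sum of TF and AMBP was 66.3 TPM in control replicate 1 and 195 TPM in FFAs replicate 1. This is 0.565% and 1.66% of the HepG2 mean, against 0.0988% to 0.2% in the other Caco-2 libraries. Over all 10 markers, control replicate 1 did not stand apart: the co-cultured control libraries were close to each other, with sums of 3553 and 3737 TPM. Mono-cultured controls had sums of 2564 to 3653 TPM. With FFAs the sums were 3354 to 4394 TPM in co-culture and 2171 to 3213 TPM in mono-culture. The number of genes above 0 TPM ranged from 20996 to 23689 in Caco-2 and from 19259 to 22416 in HepG2 libraries. In every group 1 library had more of them than the others: replicate 2 of co-cultured control Caco-2 cells and replicate 3 of the other 7 groups. TPM hold no counts, so the depth behind each value is unknown.

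TPM are scaled by transcript length, so levels can be ordered between genes. In HepG2 cells, SCARB1 was the most abundant of the 9 with 243 ± 21.3 TPM (mean ± SD, n = 12), followed by MTTP (123 ± 17.5 TPM), LCAT (70.3 ± 17.3 TPM) and ANGPTL8 (50.5 ± 25.3 TPM). The ranges of LCAT overlapped those of MTTP and of ANGPTL8, while the lowest MTTP library (94.2 TPM) lay just above the highest ANGPTL8 library (93.6 TPM). PLTP (24.97 ± 3.47 TPM) and LIPC (23.5 ± 5.70 TPM) lay within each other's spread, as did LRP1 (12.9 ± 3.05 TPM) and VLDLR (9.06 ± 4.19 TPM), and TM6SF2 came last (1.99 ± 0.558 TPM). In Caco-2 cells, SCARB1 again led (225 ± 19.4 TPM, n = 11), but PLTP was next (154 ± 19.2 TPM). LIPC (23.7 ± 7.59 TPM), LRP1 (13.3 ± 2.80 TPM) and MTTP (8.54 ± 3.56 TPM) followed. VLDLR (5.49 ± 1.24 TPM) and LCAT (4.63 ± 1.09 TPM) did not differ beyond their spread, TM6SF2 was at 2.38 ± 0.768 TPM, and ANGPTL8 was listed at 0 in 7 of the 11 libraries.

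**Figure D1:**
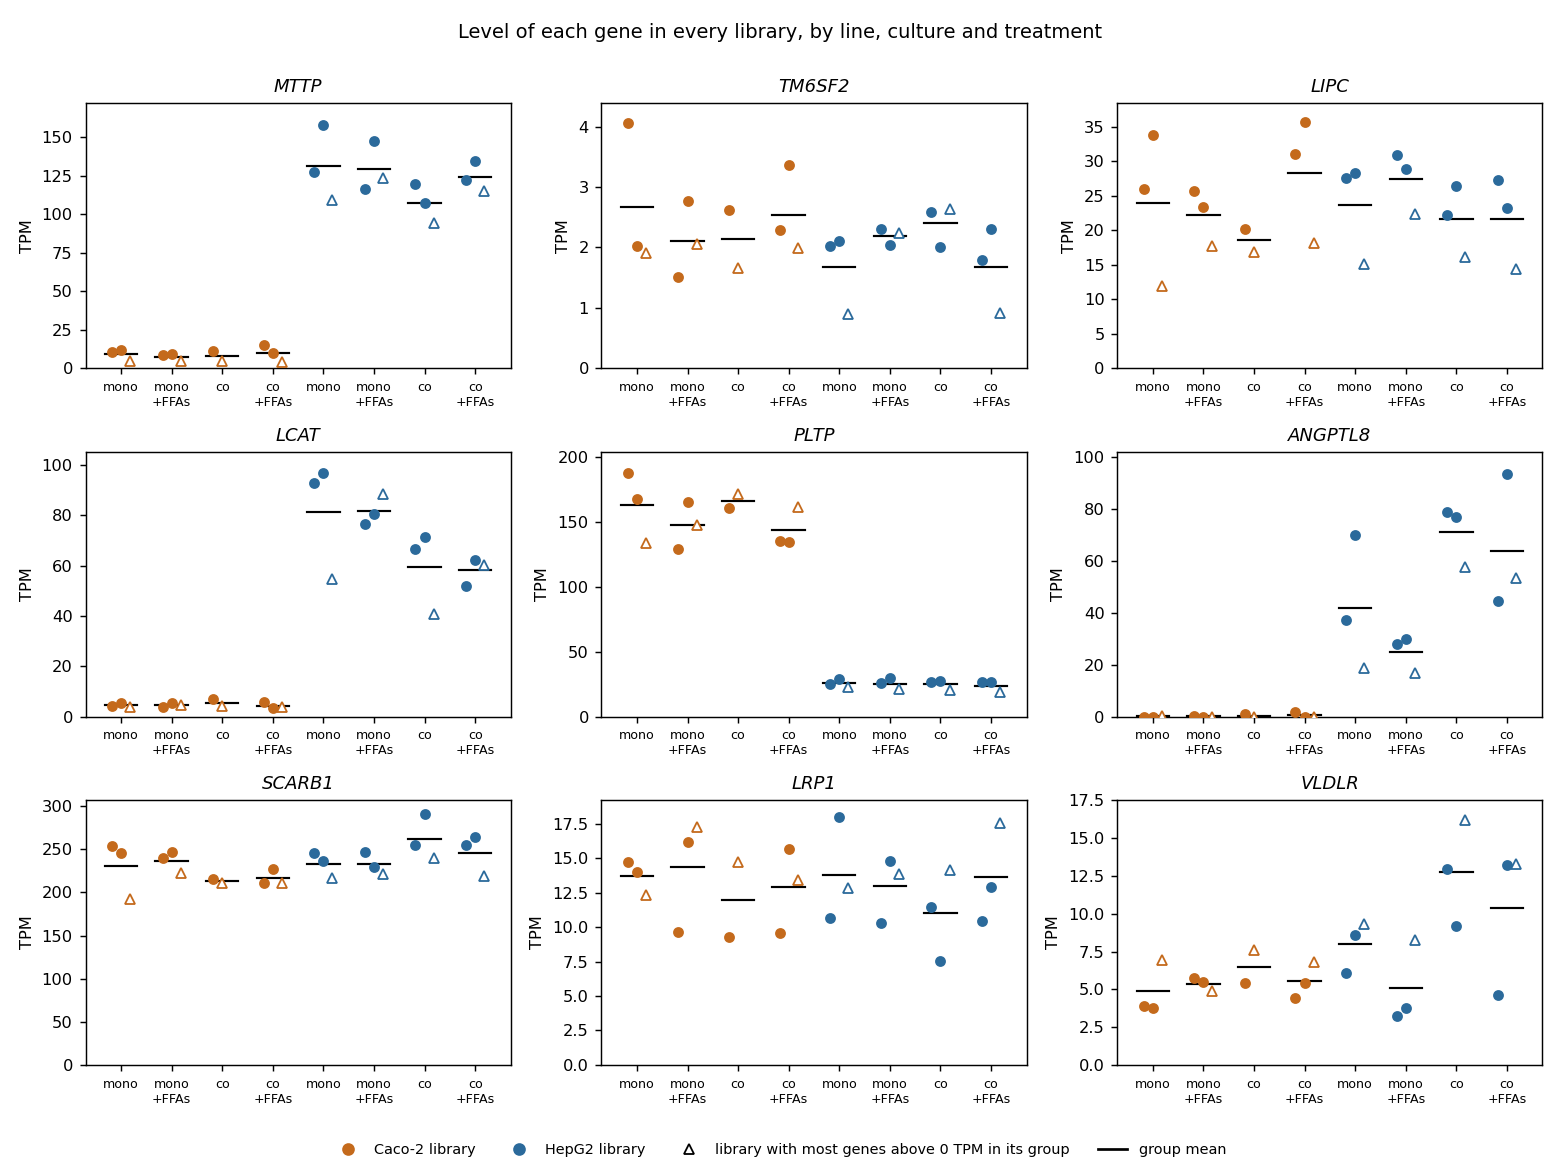
Level of each of the 9 genes (TPM, linear axis from 0) in every library, by group; circles and triangles are libraries, triangles mark the library with the most genes above 0 TPM in its group, and black lines are group means. MTTP, LCAT and ANGPTL8 are high in HepG2 (blue), PLTP is high in Caco-2 (orange), and the other 5 genes overlap between the lines.

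Among the assembly genes, MTTP was far higher in HepG2 cells, and TM6SF2 was low in both lines. MTTP (ENSG00000138823) is a gene of 18 exons in its canonical transcript at chr4:99564081-99623997 (GRCh38, plus strand). In HepG2 cells it was at 127, 158 and 109 TPM in mono-cultured controls (replicates 1 to 3), 116, 148 and 124 TPM in mono-cultured cells with FFAs, 119, 107 and 94.2 TPM in co-cultured controls, and 122, 134 and 115 TPM in co-cultured cells with FFAs. In Caco-2 cells the values in the same order were 10.5, 11.5 and 4.95 TPM, 8.83, 9.03 and 4.49 TPM, 11.0 and 4.64 TPM, and 15.2, 9.59 and 4.30 TPM. The lowest HepG2 library thus lay well above the highest Caco-2 library, while the groups within a line overlapped, and the highest Caco-2 value belonged to the co-cultured library with the most TF and AMBP. Averaged over the 4 conditions, MTTP was higher in HepG2 by 3.79 on the log2(TPM + 1) scale (SE 0.18, limma with Benjamini-Hochberg adjusted p = 1.63e-13), or 13.9-fold on that scale. TM6SF2 (ENSG00000213996, chr19:19264364-19273391, minus strand) ranged from 0.89 to 2.63 TPM in HepG2 and from 1.51 to 4.06 TPM in Caco-2 cells, and the lines differed by -0.17 (SE 0.13, limma adjusted p = 0.245). Of its 1518 canonical exon bases, 885 are shared with a long non-coding RNA gene on the same strand, so its reads could be split between both.

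The remodelling genes showed 3 patterns: LCAT and ANGPTL8 were high in HepG2, PLTP was high in Caco-2, and LIPC was alike in level. LCAT (ENSG00000213398, chr16:67939750-67944131, minus strand) was at 92.9, 96.6 and 54.7 TPM in mono-cultured control HepG2 cells, 76.6, 80.4 and 88.6 TPM with FFAs, 66.8, 71.2 and 40.9 TPM in co-cultured controls, and 52.0, 62.4 and 60.4 TPM in co-culture with FFAs. Its Caco-2 values lay between 3.28 and 6.88 TPM, the highest in the co-cultured control library with more TF and AMBP. The lines did not overlap, and LCAT was higher in HepG2 by 3.63 on the log2(TPM + 1) scale (SE 0.12, limma adjusted p = 6.08e-16). A part of LCAT, 173 of 1496 canonical exon bases, is shared with SLC12A4 on the same strand, which was at 58.8 to 88.0 TPM in HepG2 and 32.3 to 47.7 TPM in Caco-2 cells.

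ANGPTL8 (ENSG00000130173, chr19:11237502-11241943, plus strand) set the lines apart most among the 9. In HepG2 cells it was at 37.2, 70.1 and 18.7 TPM in mono-cultured controls, 28.1, 30.01 and 16.8 TPM with FFAs, 78.7, 76.8 and 57.6 TPM in co-cultured controls, and 44.6, 93.6 and 53.3 TPM in co-culture with FFAs. In Caco-2 cells the only values above 0 were 0.33 TPM in a mono-cultured control, 0.11 TPM in a mono-cultured library with FFAs, and 0.79 and 1.66 TPM in the co-cultured libraries with the most TF and AMBP. The difference between the lines was 5.23 on the log2(TPM + 1) scale and 7.78 with a pseudocount of 0.1 TPM instead of 1 TPM. It is given as a description, because ANGPTL8 was under 1 TPM on average in every Caco-2 group and passed the filter only through HepG2, where it is high. ANGPTL8 lies inside DOCK6 on the opposite strand with no exon base in common, and the library kit keeps no strand. DOCK6 was at 8.02 to 16.6 TPM in HepG2 and at 13.6 to 22.0 TPM in Caco-2 cells.

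PLTP (ENSG00000100979, chr20:45898621-45912155, minus strand) went the other way, with 129 to 188 TPM in Caco-2 and 18.6 to 29.6 TPM in HepG2 cells. Its level in Caco-2 cells was 163 ± 27.3 TPM in mono-cultured controls (SD, n = 3), 148 ± 18.3 TPM with FFAs (n = 3), 166 ± 7.58 TPM in co-cultured controls (n = 2) and 144 ± 15.4 TPM in co-culture with FFAs (n = 3). The lines did not overlap, and PLTP was 6.03-fold lower in HepG2 on the log2(TPM + 1) scale (-2.59, SE 0.085, limma adjusted p = 3.51e-16). PLTP shares 328 of 1889 canonical exon bases with CTSA on the opposite strand, and CTSA was at 354 to 617 TPM in Caco-2 and 153 to 284 TPM in HepG2 cells.

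LIPC (ENSG00000166035, chr15:58410569-58569844, plus strand), known as the lipase of liver, was as abundant in Caco-2 as in HepG2 cells within its spread. It was at 26.0, 33.8 and 11.9 TPM in mono-cultured control Caco-2 cells, 25.7, 23.3 and 17.7 TPM with FFAs, 20.2 and 16.8 TPM in co-cultured controls, and 31.1, 35.7 and 18.2 TPM in co-culture with FFAs. In HepG2 cells the values in the same order were 27.5, 28.3 and 15.1 TPM, 30.9, 28.8 and 22.4 TPM, 22.3, 26.4 and 16.1 TPM, and 27.2, 23.2 and 14.4 TPM. All 4 pairs of groups overlapped, and the lines differed by 0.04 on the log2(TPM + 1) scale, with a 95% interval from -0.32 to 0.40 (limma adjusted p = 0.838). MTTP and LIPC thus each hold a match to the HNF1 consensus before a start, with a different letter at its free base. MTTP differed between the lines and LIPC did not pass the test, and any part of the motif in this was not tested.

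Of the uptake receptors, SCARB1 and LRP1 did not pass the test between the lines and VLDLR was somewhat higher in HepG2. SCARB1 (ENSG00000073060, chr12:124776856-124882668, minus strand) ranged from 192 to 254 TPM in Caco-2 and from 217 to 291 TPM in HepG2 cells. The lines overlapped in 3 conditions but not in co-cultured controls (254.7, 290.6 and 239.7 TPM in HepG2, and 216 and 210.5 TPM in Caco-2 cells). That condition had only 2 Caco-2 libraries, and the share of all genes without overlap in it was not computed. Averaged over conditions SCARB1 differed by 0.12 on the log2(TPM + 1) scale (95% interval 0.01 to 0.23, limma adjusted p = 0.0519). This missed the threshold, but 11 of 31 alternatives passed it, among them median-of-ratios scaling with 0.35 and quantile normalization with 0.26. LRP1 (ENSG00000123384, chr12:57128483-57213361, plus strand), which has 89 exons in its canonical transcript, ranged from 9.25 to 17.2 TPM in Caco-2 and from 7.52 to 18.0 TPM in HepG2 cells, a difference of -0.04 (95% interval -0.33 to 0.25, limma adjusted p = 0.789) that turned to 0.17 and 0.26 under these 2 scalings without passing the test.

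VLDLR (ENSG00000147852, chr9:2621182-2660056, plus strand) was at 6.06, 8.60 and 9.34 TPM in mono-cultured control HepG2 cells, 3.25, 3.74 and 8.25 TPM with FFAs, 13.0, 9.16 and 16.2 TPM in co-cultured controls, and 4.63, 13.2 and 13.3 TPM in co-culture with FFAs. In Caco-2 cells it was at 3.88, 3.76 and 6.95 TPM, 5.77, 5.46 and 4.91 TPM, 5.42 and 7.60 TPM, and 4.44, 5.41 and 6.83 TPM. Compared group by group, the HepG2 libraries all lay above the Caco-2 libraries in co-cultured controls and overlapped them in the other 3 conditions. Co-cultured controls had only 2 Caco-2 libraries, and the share of all genes without overlap in that condition was not computed. Of the 9213 canonical exon bases of VLDLR, 172 are shared with VLDLR-AS1 on the opposite strand and 633 with another gene on that strand. The averaged difference was 0.51 (SE 0.17, limma adjusted p = 0.0124), and it missed the threshold without the co-cultured Caco-2 libraries with the most TF and AMBP (0.42, adjusted p = 0.0674; adjusted p from 2.84e-04 to 0.0674 over 31 alternatives).

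Of the 8 genes that passed the filter in both lines, 4 differed between the lines in the averaged contrast (MTTP, LCAT and VLDLR higher and PLTP lower in HepG2), beside 79% of all 16495 genes tested. In mono-cultured controls alone, 3 of the 8 did (MTTP, LCAT and PLTP), beside 62.4% of all genes. MTTP, LCAT and PLTP, 3 of the 8, had no overlap between any HepG2 and any Caco-2 library, beside 42.7% of all genes. ANGPTL8 had none either, but is left out of this count because it passed the filter only through HepG2. By the test, the share of members that differed was not above that of all genes, and by overlap it was near it. The median difference of all genes was -0.24 in the averaged contrast.

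**Figure D2:**
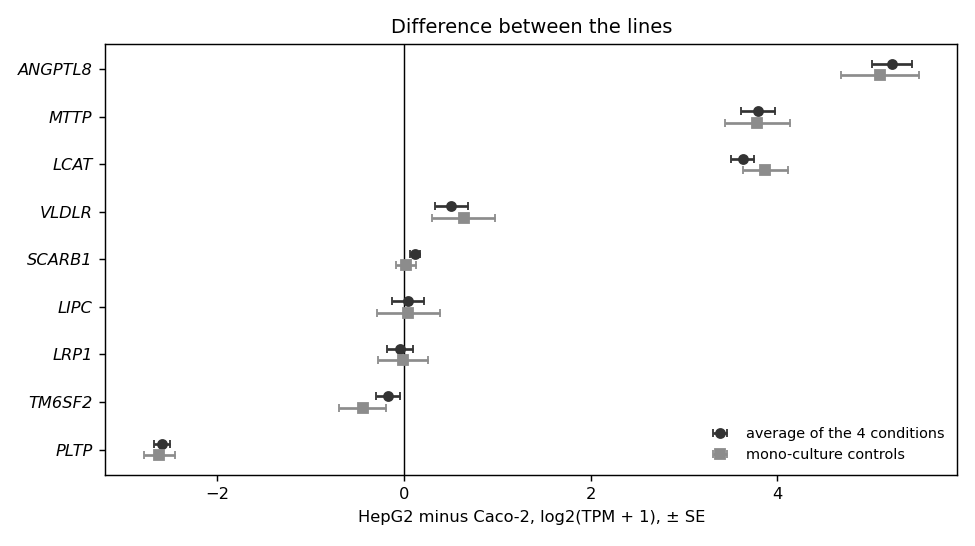
Difference between the lines for each gene, HepG2 minus Caco-2 in log2(TPM + 1), with bars of 1 SE; dark circles are the average of the 4 conditions and grey squares are mono-cultured controls. ANGPTL8, MTTP and LCAT lie between 3.6 and 5.2 above 0, and PLTP lies 2.6 below 0. VLDLR lies at 0.51 in the average and 0.64 in mono-cultured controls, and TM6SF2 at -0.17 and -0.44. LIPC, SCARB1 and LRP1 lie near 0. ANGPTL8 passed the filter only through HepG2.

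Whether contact with Caco-2 cells through the perfused medium changed these genes in HepG2 cells was addressed by the co-culture contrast, averaged over both treatments. In the main fit, which holds no term for the replicate number, 0 of the 9 genes passed the adjusted threshold by limma. This stands beside 0.0561% of all 14255 genes tested. An unadjusted p under 0.05 was found for 3 (beside 12.5% of all genes): ANGPTL8, VLDLR and LCAT. Taken apart by treatment, 0 were called either way (beside 0% of all genes), with 1 unadjusted among controls (ANGPTL8, beside 7.53%) and 2 with FFAs (ANGPTL8 and VLDLR, beside 5.63%). ANGPTL8 averaged 67.4 TPM in co-culture and 33.5 TPM in mono-culture, a difference of 1.11 on the log2(TPM + 1) scale (SE 0.29, 95% interval 0.47 to 1.74, unadjusted p = 0.00257, limma adjusted p = 0.168). With FFAs every co-cultured library lay above every mono-cultured library, as in 9.6% of all genes, whereas among controls 1 mono-cultured library (70.1 TPM) lay above 1 co-cultured library (57.6 TPM). Among the libraries with the most genes above 0 TPM the averaged difference was 1.59, and among the others it was 0.86. With that split of libraries as a term, an alternative added after the data had been seen, the difference passed the threshold (limma adjusted p = 0.0237). It also passed with the replicate number as a block (limma adjusted p = 0.0202), where the count of all genes called rose from 8 to 492. Over 20 alternatives the adjusted p ran from 0.0202 to 0.371, and these 2 passed. Residuals of same-numbered HepG2 libraries correlated with a median of 0.305 (0.028 to 0.601), against -0.226 for other pairs. As residuals sum to 0 within a group, these medians are not independent of each other. The main fit leaves the replicate number out, because the labels do not state that equal numbers mean a shared experiment.

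VLDLR averaged 11.6 TPM in co-cultured and 6.54 TPM in mono-cultured HepG2 cells, a difference of 0.74 (SE 0.28, unadjusted p = 0.0205, limma adjusted p = 0.297). LCAT was lower in co-culture, at 59.0 against 81.6 TPM on average (-0.46, SE 0.16, unadjusted p = 0.016, limma adjusted p = 0.286). For LCAT the co-cultured libraries with FFAs all lay below the mono-cultured ones, as in either direction for 9.6% of all genes, while among controls 1 mono-cultured library (54.7 TPM) lay below 2 co-cultured ones (66.8 and 71.2 TPM). For LCAT the averaged difference was -0.48 among the libraries with the most genes above 0 TPM and -0.45 among the others. For VLDLR these values were 0.68 and 0.76. The summed HepG2 markers were at 41139 to 56479 TPM in the co-cultured and 53889 to 64655 TPM in the mono-cultured HepG2 libraries, and their part in these differences was not tested. The remaining 6 genes had averaged differences between -0.23 (LIPC) and 0.12 (SCARB1), and the median over the 9 genes was -0.07, beside -0.02 for all genes.

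**Figure D3:**
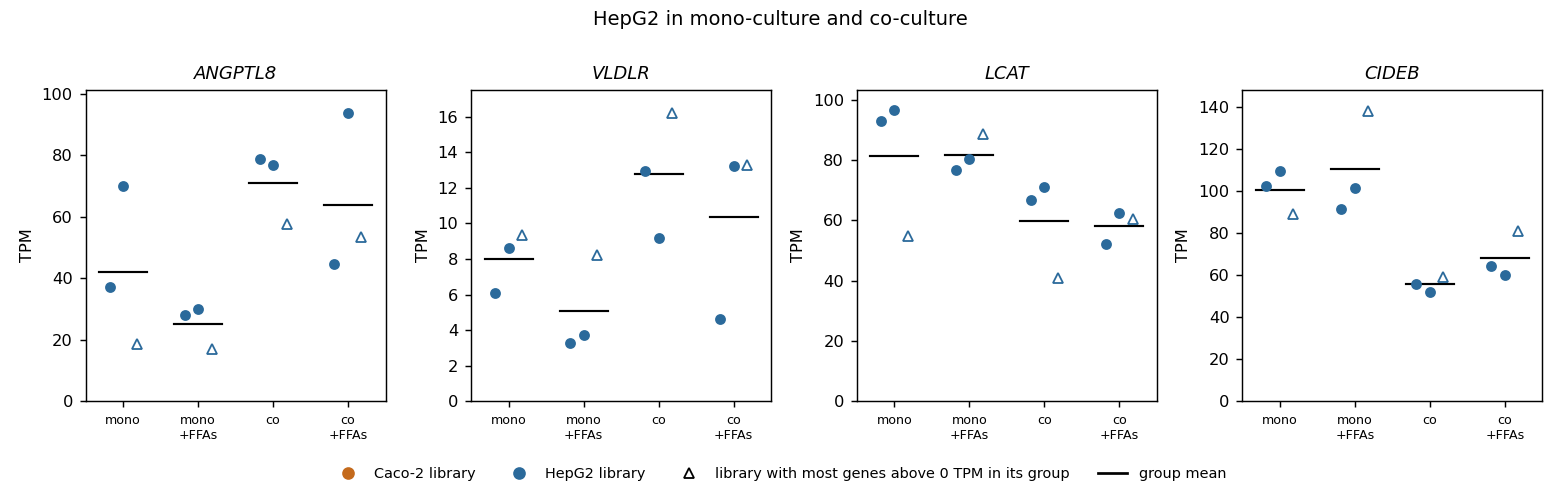
ANGPTL8, VLDLR, LCAT and CIDEB in the 12 HepG2 libraries (TPM, linear axes from 0), with 3 libraries per group; triangles mark the library with the most genes above 0 TPM in its group and black lines are group means. CIDEB, a lipid droplet protein of the wider list, lies lower in all 6 co-cultured libraries, and the other 3 genes overlap between the cultures.

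In Caco-2 cells 8 of the 9 genes could be tested, since ANGPTL8 was under the filter of 1 TPM in every group. None was called for co-culture by limma (0 of 8 at an adjusted p under 0.05, beside 0% of all 15081 genes). At an unadjusted p under 0.05 there were 0 as well, beside 10.5% of all genes. Controls alone gave 0 (beside 0.0199%, or 5.43% unadjusted), and so did cells with FFAs (beside 0%, or 6.09% unadjusted). The averaged differences lay between -0.17 (LRP1, SE 0.18) and 0.21 (VLDLR, SE 0.17), and that of MTTP was 0.02 with a 95% interval from -0.71 to 0.75. Without the co-cultured libraries with the most TF and AMBP, MTTP was at -0.44, LCAT at -0.23 and LRP1 at 0.08, against 0.02, 0.03 and -0.17 with them, and none passed the test. Whether the co-culture difference itself differed between the lines was tested in 1 fit of all 8 groups. No member passed (0 of 9, beside 0.533% of all genes), and SCARB1 had the only unadjusted p under 0.05 among them (beside 14.6% of all genes): it averaged 254 TPM in co-cultured and 233 TPM in mono-cultured HepG2 cells, but 215 and 234 TPM in Caco-2 cells (difference of differences 0.24, SE 0.11, unadjusted p = 0.0397, limma adjusted p = 0.312).

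No comparison of FFAs with control called a member, with 9 genes tested in HepG2 and 8 in Caco-2 cells. In HepG2 cells, limma called 0 of 9 in mono-culture, in co-culture and averaged over both (beside 0% of all genes each time). At an unadjusted p under 0.05 there were 0 of 9 in each, beside 2.24%, 1.84% and 3.49% of all genes. The 2 largest averaged differences were those of VLDLR (-0.50, SE 0.28, 95% interval -1.10 to 0.10, unadjusted p = 0.0945) and ANGPTL8 (-0.39, SE 0.29, 95% interval -1.03 to 0.24). MTTP, which loads the triglyceride made from fatty acids, differed by 0.10 (95% interval -0.13 to 0.33). In Caco-2 cells 0 of 8 genes were called in mono-culture (beside 0%), in co-culture (beside 0.0199%) and averaged (beside 0%), with 0 at an unadjusted p under 0.05, beside 2.61%, 2.83% and 3.99% of all genes. The averaged differences ran from -0.18 (PLTP, SE 0.10) to 0.27 (LIPC, SE 0.25). The effect of FFAs did not pass a test of difference between cultures (0 members in either line, beside 0% of all genes, and 0 at an unadjusted p under 0.05, beside 1.94% in Caco-2 and 1.16% in HepG2) or between lines (0 of 9, beside 0.0182%, and 0 at an unadjusted p under 0.05, beside 2.99%). MTTP in Caco-2 cells differed by 0.01 with a 95% interval from -0.72 to 0.74, and the interval of LIPC there reached from -0.28 to 0.82. Changes within these intervals are not excluded, and the smallest change that could be detected was not computed.

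**Figure D4:**
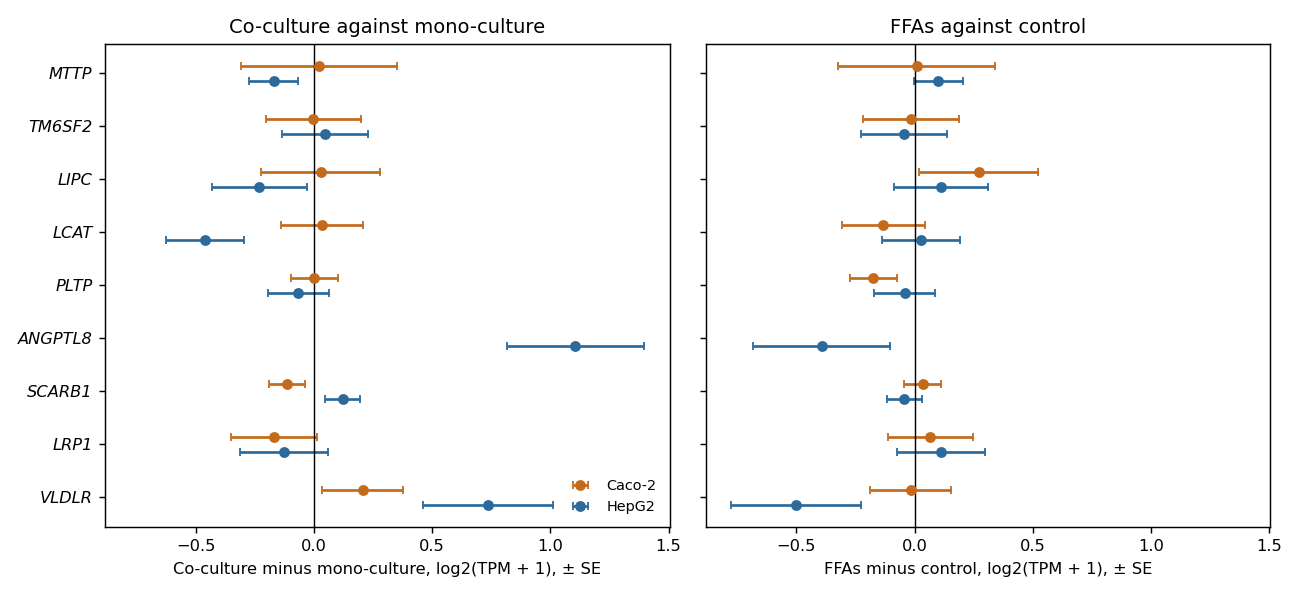
Averaged difference of each gene between co-culture and mono-culture (left) and between FFAs and control (right) in log2(TPM + 1), with bars of 1 SE, for Caco-2 (orange) and HepG2 (blue); ANGPTL8 was not tested in Caco-2. ANGPTL8 (1.11) and VLDLR (0.74) in co-cultured HepG2 cells lie farthest to the right, and the FFAs differences lie between -0.50 and 0.27.

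The 4-group criteria of the study's methods, an unadjusted p under 0.05 in a one-way analysis of variance of the 4 groups of a line with at least a 1.2-fold difference between any pair of means, were met by 0 of the 9 genes in Caco-2 (beside 3.08% of 31100 genes) and by 0 in HepG2 cells (beside 3.56% of 29942 genes). ANGPTL8 in HepG2 cells came nearest: its group means differed by up to 1.499 on the log2(TPM + 1) scale, and its p missed the threshold. It met the criteria under 5 of the alternatives that keep all libraries, and without mono-cultured control replicate 2 or 3.

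Some of the genes differed between the library with the most genes above 0 TPM and the others. In Caco-2 cells, MTTP was at 4.30 to 4.95 TPM in the 4 libraries with the most genes above 0 TPM in their group and at 8.83 to 15.2 TPM in the other 7, and LIPC was at 11.9 to 18.2 TPM against 20.2 to 35.7 TPM. Neither gene overlapped, as held for 5.89% of all genes. In HepG2 cells, PLTP was at 18.6 to 22.8 TPM in these 4 libraries and at 25.1 to 29.6 TPM in the other 8, without overlap, as held for 11.7% of all genes. CTSA, whose exons overlap those of PLTP, was split in the same way there, with 153 to 176 TPM against 201 to 284 TPM. So were SLC12A4 (58.8 to 66.3 against 67.8 to 88.0 TPM) and NOP9 (8.63 to 10.7 against 10.8 to 14.9 TPM). LCAT and CIDEB, which share exon bases with SLC12A4 and NOP9, were not split without overlap in HepG2. LIPC in HepG2 cells was at 14.4 to 22.4 TPM against 22.3 to 30.9 TPM, and VLDLR went the opposite way in both lines, with means of 11.8 against 7.70 TPM in HepG2 and 6.57 against 4.88 TPM in Caco-2 cells. The labels give no batch that names these libraries. The split was also fitted as a term, picked post hoc. In Caco-2 cells the SE of the averaged FFAs difference then went from 0.33 to 0.13 for MTTP. It went from 0.25 to 0.14 for LIPC and stayed at 0.10 for PLTP. MTTP and LIPC still did not pass the test there (limma adjusted p = 0.935 and 0.872). What lies behind the split was not tested. TM6SF2 in mono-cultured control HepG2 cells (0.89 TPM against 2.02 and 2.1001 TPM) and in co-culture with FFAs (0.92 TPM against 1.79 and 2.30 TPM) was lowest in this library, but with FFAs in mono-culture (2.23 against 2.30 and 2.04 TPM) it lay between the others and in co-cultured controls (2.63 against 2.59 and 2.01 TPM) it was highest.

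**Figure D5:**
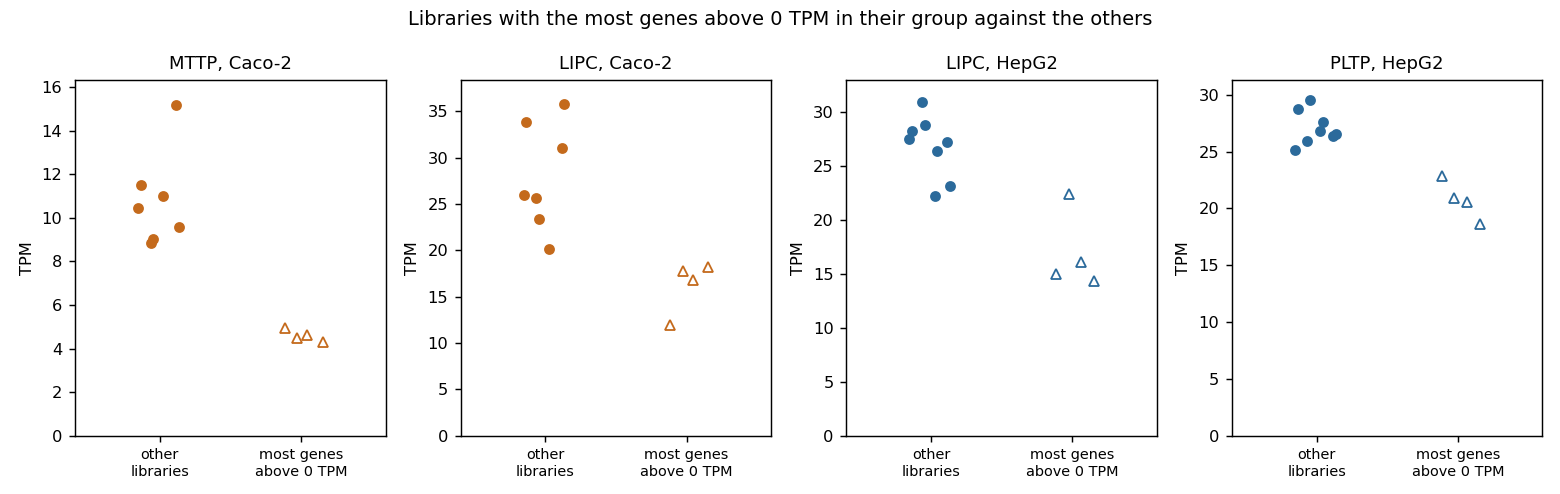
MTTP and LIPC in Caco-2 (orange) and LIPC and PLTP in HepG2 (blue) in the library of each group with the most genes above 0 TPM (triangles, 4 per line) and in the others (circles, 7 in Caco-2 and 8 in HepG2), in TPM on linear axes from 0. MTTP and LIPC in Caco-2 and PLTP in HepG2 do not overlap between these libraries.

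Across the libraries of a line, the 9 genes moved with each other in part, which is given as a description because the libraries share the split above. MTTP and LIPC had r = 0.793 over 11 Caco-2 libraries, and LIPC and PLTP had r = 0.813 over 12 HepG2 libraries. VLDLR ran against LIPC in both lines (r = -0.698 in Caco-2 and -0.722 in HepG2), and SCARB1 ran against LRP1 in HepG2 (r = -0.749). Of all genes tested in HepG2 cells, those most like LIPC were FDPS (r = 0.98) and FDFT1 (r = 0.973), enzymes of cholesterol synthesis. VLDLR was like IFRD1 (r = 0.973), and those most like ANGPTL8 were NAGS (r = 0.943), the mitochondrial enzyme that makes N-acetylglutamate, and GRPEL2 (r = 0.927). LCAT was most like SERPINA6 (r = 0.939), which encodes the corticosteroid carrier of plasma, and SLC13A5 (r = 0.934), a citrate transporter. MTTP was most like SLC6A4 (r = 0.961) and ATPAF1 (r = 0.959), PLTP most like LZIC (r = 0.977) and PRKACA (r = 0.958), SCARB1 most like ATAD3A (r = 0.913) and DOT1L (r = 0.905), LRP1 most like TMCO3 (r = 0.929) and SPEN (r = 0.924), and TM6SF2 most like FBXO42 (r = 0.869) and KLHL12 (r = 0.864). In Caco-2 cells, MTTP was most like SLC39A4 (r = 0.967), a zinc transporter of enterocytes, and C3 (r = 0.963), and LIPC was most like AOC1 (r = 0.958). For SCARB1 it was TCF7 (r = 0.96), for PLTP RCN3 (r = 0.931), for LRP1 EPPK1 (r = 0.956), for VLDLR QKI (r = 0.949), for LCAT PCOLCE2 (r = 0.92) and for TM6SF2 AKR7A3 (r = 0.906).

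Of 32 other genes of these pathways, 25 could be tested in Caco-2 and 26 in HepG2 cells. LPL and GPIHBP1, which act at the vessel wall, and ABCG1 and STAB1 were under the filter in both lines. Between the lines 14 of 27 were higher and 9 lower in HepG2 in the averaged contrast (beside 29.2% and 49.8% of all genes), and 12 and 8 were in mono-cultured controls (beside 23.4% and 39%). For 3 of the 27, LRP2 among them, the filter was passed only through the line where they are higher, so their part in these counts was fixed by it. P4HB, the partner subunit of MTTP, was at 2110 ± 140 TPM in HepG2 and 960 ± 62.5 TPM in Caco-2 cells (1.13 higher, SE 0.043, limma adjusted p = 4.77e-15), so that the partner differed less than MTTP itself. LRP8, the receptor closest to VLDLR, was higher in HepG2 (27.1 ± 6.97 against 4.38 ± 1.65 TPM, 2.43, adjusted p = 9.30e-13 by limma), and MYLIP, a ubiquitin ligase that marks the VLDLR protein for degradation, was lower (3.24 ± 1.26 against 15.3 ± 2.94 TPM, 4.01-fold lower on the log2(TPM + 1) scale). LSR (-1.18), the lipolysis-stimulated receptor, and SAR1A (-1.17), a GTPase of vesicle budding, were lower in HepG2 too, each under 31 of 31 alternatives. LRP2, a large endocytic receptor, was at 5.82 ± 1.66 TPM in Caco-2 and 0.122 ± 0.165 TPM in HepG2 cells, which is given as a description. In mono-cultured controls SORT1, a sorting receptor, was higher by 1.05 (SE 0.12, limma adjusted p = 2.65e-07).

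For FFAs against control, limma called 0 of the tested genes of this list in either line. For co-culture in HepG2 cells, 1 of 26 was called, CIDEB (beside 0.0281% of all genes that were called lower), a lipid droplet protein that takes part in the lipidation of VLDL. CIDEB (ENSG00000136305, chr14:24305187-24311430, minus strand) was at 102, 109 and 89.2 TPM in mono-cultured controls, 91.3, 101 and 138 TPM with FFAs, 55.5, 52.1 and 59.2 TPM in co-cultured controls, and 64.1, 60.0 and 80.7 TPM in co-culture with FFAs. All 6 co-cultured libraries lay below all 6 mono-cultured libraries, as held in either direction for 1.35% of all genes. The difference was -0.76 (SE 0.11, 1.69-fold lower on the log2(TPM + 1) scale, limma adjusted p = 0.0478). This call sits at the threshold: 5 of 20 alternatives kept it and 15 did not, with differences from -0.82 to -0.67 and adjusted p from 0.0082 to 0.135, and it was lost without any 1 of the libraries except co-cultured FFAs replicate 3. In Caco-2 cells CIDEB was not lower in co-culture: it was at 41.2, 43.4 and 30.1 TPM in mono-cultured controls, 26.8, 42.4 and 34.8 TPM with FFAs, 34.8 and 47.3 TPM in co-cultured controls, and 69.9, 73.5 and 47.2 TPM in co-culture with FFAs (averaged difference 0.48, SE 0.16, limma adjusted p = 0.37). The difference between the lines in this effect passed the test (-1.23, SE 0.21, limma adjusted p = 0.0138, 1 lower beside 0.333% of all genes), and it passed under all 32 alternatives run, with adjusted p from 0.00376 to 0.0368. All 1225 canonical exon bases of CIDEB lie under exons of NOP9 on the opposite strand, which the kit cannot tell apart. NOP9 was at 8.63 to 14.9 TPM in HepG2 libraries, with group means between 10.8 and 11.6 TPM.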

How the data were processed

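Caco-2 and HepG2 cells were detached with trypsin/EDTA in closed-off chambers and lysed, and their RNA was purified on columns, amplified with a SMART-Seq v4 kit, which keeps no strand, and sequenced on a NovaSeq. The values used are TPM per gene, which the authors deposited as 1 table for each library. Per the labels and processing notes, they used Bowtie2 2.1.0, STAR 2.7.1a and RSEM 1.3.0 with GRCh38 and Ensembl 98. Each table sums to 999999 or 1000000 TPM, so depth is unknown. Values were tested as log2(TPM + 1) with limma 3.58.1 in R 4.3.3 (trended variance, Benjamini-Hochberg adjustment over all genes tested, threshold 0.05) on genes whose mean reached 1 TPM in any of the groups fitted. A fold on this scale understates changes of low genes. The 4 groups of a line shared 1 fit, and contrasts between lines came from a fit of all 8 groups. The code was tested on simulated data. Gene positions are from GENCODE 44.

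The named genes are all 9 members, at most 6 genes per contrast by adjusted p from a list of 32, and the 2 genes with the highest r to each member (fewer are printed for some). A few items of these lists are not reported here. The members and lists were chosen with earlier results of these data known. Alternatives were the pseudocount (0.1 TPM), filters, scalings, no trend, a replicate block and each library left out. Those chosen after seeing the data were a term for the library with most genes above 0 TPM and leaving out the 2 Caco-2 libraries with most TF and AMBP.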

Additional observations from a re-analysis of the deposited data

How the results depend on the processing

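The calls of MTTP, LCAT and PLTP between the lines averaged over conditions held under all 31 alternatives run. In co-cultured HepG2 cells the number of the 9 genes called went from 0 to 1 (ANGPTL8) with the replicate block and also with the term for the library with most genes above 0 TPM. The labels do not say that a number marks a shared experiment. The residual correlation of same-numbered pairs had a median of 0.305 in HepG2 (0.028 to 0.601, against a median of -0.226 for other pairs) and of 0.088 in Caco-2 (-0.093 to 0.312, against -0.119), so not every pair was over 0.1 and the numbers were not taken as pairs. In HepG2 they are a hint of pairing from the data, not the design, and not every library there correlated best with its own number. Residuals sum to 0 within a group, so the values of same-numbered and other pairs are not independent. In the Caco-2 group of 2 libraries they mirror each other, which gives the low end of -0.093. The block moved the count of all genes called from 8 to 492 in co-cultured HepG2 cells, from 0 to 60 in co-cultured Caco-2 cells and from 88 to 344 for the difference between lines. Without it, the HepG2 count was 12 with a pseudocount of 0.1 TPM, 16 with the strict filter, 1 without a filter, 4 with quantile normalization, 4 without a trend, 439 with the library term, and 0 to 15 with 1 library left out. The 4-group criteria in HepG2 were met by 1 gene under median-of-ratios scaling, quantile normalization and limma's moderated F test, by 2 (ANGPTL8 and VLDLR) with the block and with the library term, and by 0 to 2 with 1 library left out.

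Some differences that passed no test changed sign. Without the 2 Caco-2 libraries with most TF and AMBP, LCAT was at -0.13 and LRP1 at 0.10 among co-cultured controls, MTTP at -0.44, LCAT at -0.23 and LRP1 at 0.077 averaged, and MTTP at 0.27 for the difference between lines. Scaling moved the median of all genes between the lines from -0.24 to about 0 and turned TM6SF2 to 0.15 (quantile) and LRP1 to 0.17 (median-of-ratios) and 0.26 (quantile). With 1 library left out, FFAs in mono-cultured Caco-2 cells gave -0.42 to 0.30 for LIPC and -0.081 to 0.12 for SCARB1, and in co-culture -0.31 to 0.78 for MTTP, -0.63 to 0.030 for LCAT and -0.20 to 0.41 for LRP1. Co-culture of control Caco-2 cells gave -0.75 to 0.34 for MTTP, -0.13 to 0.53 for LCAT and -0.51 to 0.10 for LRP1. FFAs in mono-cultured HepG2 cells gave -0.040 to 0.39 for LIPC and -0.21 to 0.19 for LCAT, and in co-culture -0.24 to 0.15 for LCAT and -0.59 to 0.083 for VLDLR. Between the lines, mono-cultured controls gave -0.37 to 0.35 for LIPC and -0.10 to 0.10 for SCARB1. The cause was not tested.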
